A study of Arabidopsis thaliana with 3 samples.

Results

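Transcripts that were well expressed in water-treated Arabidopsis plants and at least 2-fold lower after 1 hour of the synthetic auxin 2,4-dichlorophenoxyacetic acid (2,4-D) are described here. A probe set was a member when its signal on the water array was 100 or more and each of both 2,4-D arrays read at most 50% of it. Organelle-encoded genes were left out, as were families with a symbol beginning GH3., IAA, LBD, HAT, PUB, LEA, COR, EXP, XTH, TET, UGT, IQD, WRKY, bZIP or BGLU. This gave 221 members among 22746 probe sets, of which 6468 had a water signal of 100 or more. A single gene was named for 97 members, which stand for 96 genes. Another 7 members carried several genes, and 117 had no entry in the probe-to-gene table, which does not mean that they lack a gene. The rule used the signals of all 3 arrays, so the size and direction of each member's difference are a description and carry no test.

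The plants were Arabidopsis thaliana Col-0, the common laboratory accession, and whole plants were collected at the stage of 4 rosette leaves. They had grown for 14 days on phytagel plates with MS medium and 1.5% sucrose under a 16 hour photoperiod, after 48 hours of darkness at 4 degrees C. The 2,4-D group (2 arrays) had its plates flooded with 1 mL of 2,4-D in water at pH 7.0, at 1 mM for 1 hour, and the water group (1 array) was flooded with 1 mL of distilled water for 1 hour. Nothing in the labels says that the 2,4-D samples came from separate plates or plants, so the spread between their arrays may be technical. Biotin-labelled RNA was read on Affymetrix ATH1 arrays, and values are MAS5 signals on a linear scale. Whole plants mix tissues, so fewer cells of a type and less RNA per cell cannot be told apart in any value below. Both leaf and root markers were present: RCA, the activase of the carbon-fixing enzyme Rubisco, had signals of 4809 and 8579 with 2,4-D, against 7242 with water, and the root beta-glucosidase gene PYK10 had 2985 and 2439, against 2240. The other root markers, the root-hair expansin genes EXPA7 and EXPA18, were dim and lower with 2,4-D, with 15.1 and 15.3 against 37.0 and with 7.98 and 3.55 against 43.8. The part of the tissue mix in the members' values was not tested.

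Auxin is a plant hormone that is bound by receptors of the TIR1/AFB family, which then mark Aux/IAA repressors for destruction and release auxin response factors. 2,4-D acts through the same receptors and, at high doses, kills broad-leaved plants. Transcripts can also become less abundant under auxin, either because they are made less or because they decay. Short-lived messages are those whose level can drop most within an hour. Growth of plant cells depends on a wall that yields under turgor, and auxin and brassinosteroids both act on it.

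Hybridisation controls moved with the members. The bioB and bioC transcripts come from bacteria and are added to the labelled sample at set amounts, apart from the plant RNA. Of their 10 probe sets, which report 2 transcripts, 5 met the same numbers as the members, and all 10 had a log2 change between -1.72 and -1.04. The geometric mean for bioB was 102 and 79.8 with 2,4-D, against 228 with water, and for bioC 303 and 215, against 621. By contrast 0 of 8 probe sets for bioD and cre, which are added in larger amounts, met the numbers, with changes between -0.83 and 0.22. Of the 16 probe sets for plant actin, GAPDH and ubiquitin 1 did, an actin probe set with 481 and 485 against 1080, while another for the middle of an actin transcript read 1315 and 1328 against 1372. A further actin probe set, with 124 and 93.0 against 211, fell just short of the rule. Over the 6 actin probe sets the log2 changes ran from -1.16 to 0.29, with a median of -0.02. The water signals of bioB and bioC lay within the members' range of 100.1 to 2170.5, and the part of this difference in the members' values was not tested.

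**Figure D1:**
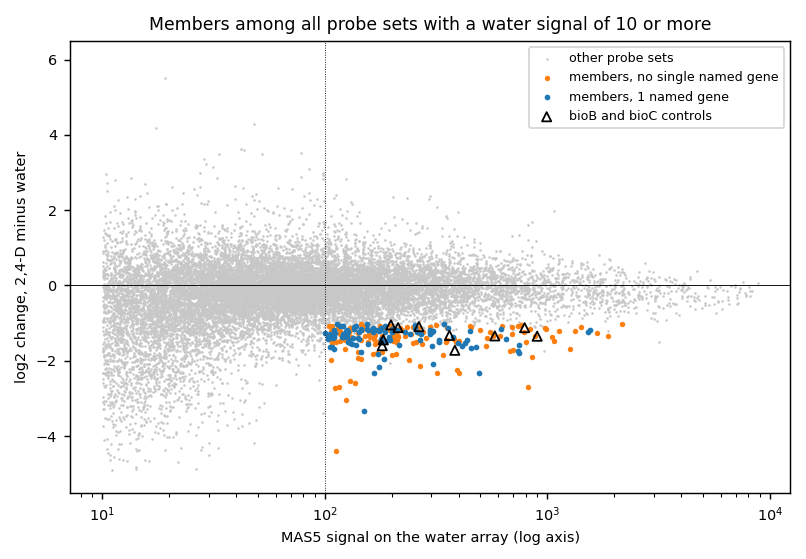
Each point is a probe set, with its MAS5 signal on the water array on the x axis (log scale) and the mean log2 signal of the 2 treated arrays minus the log2 water signal on the y axis. The 221 members (blue and orange) start at a water signal of 100 (dotted line) and end at -1.01 by the rule, and the 10 bioB and bioC control probe sets (triangles) lie among them.

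As a group the members had a median signal of 76.5 and 73.2 on the 2,4-D arrays, against 195.9 on the water array. The median log2 change was -1.35 (2.55-fold lower), against -0.07 over all probe sets with a water signal of 100 or more and -0.14 over all 22746. Before the named families and the organelle gene were removed, 227 of the 6468 probe sets met the numbers, which is 3.51%. This share depends on the limits of the rule and on the scaling of the arrays. Over the 13648 probe sets with a mean signal of 24.8 or more, whatever their water signal, 429 (3.14%) were at least 2-fold lower on both arrays. In the other direction 120 probe sets of the same water signal (1.86%) were at least 2-fold higher on both 2,4-D arrays. The water minimum keeps falls from a high water signal and shuts out rises from below 100. These counts therefore do not show that falls outnumbered rises. Most members were lower by modest factors: 100 were between 2-fold and 2.5-fold lower, 76 between 2.5-fold and 3-fold, 29 between 3-fold and 4-fold, and 16 more than 4-fold. Members made up 3.61% of probe sets with a water signal from 100 to 200, 3.39% from 200 to 500, 3.86% from 500 to 1000 and 1.94% above 1000. After 1 hour 73 members still read 100 or more on both 2,4-D arrays. All 221 members passed the filter on mean signal that was used for the tests of other genes below, as a water signal of 100 or more ensures.

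The count of members changed with the scaling of the arrays and with the limits of the rule. When each array was scaled to 1 common median, an alternative that moved the median change of the tested probe sets to 0.07, 140 of the 221 members and 60 of the 97 named ones still met the numbers. With quantile normalization 215 of the 221 met the numbers. An offset of 16 added to every signal left 147 of the 221 members and 60 of the 97 named ones within the rule. A 2.5-fold limit left 82 members and a 1.5-fold limit gave 705, while a water minimum of 200 left 108 and one of 50 gave 377.

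The 16 member genes with a symbol or synonym are taken in turn by their known roles, with no claim that a role is more frequent than in other genes. Of these EXO, ARL, HRGP1, TBL40 and THE1 act in cell growth or the wall. EXO (AT4G08950, EXORDIUM), a brassinosteroid-responsive gene needed for normal leaf cell growth, had signals of 133 and 73.2 with 2,4-D, against 492 with water, 4.99-fold lower. Both 2,4-D arrays lay far below water, but they differed from each other by 1.82-fold, the second widest gap among named members. ARL (AT2G44080, ARGOS-like), which acts in brassinosteroid-dependent cell expansion, had 51.2 and 38.9, against 130, and was 2.91-fold lower. Thus both of these growth genes read lower on 2,4-D replicate 2 than on replicate 1. HRGP1 (AT3G54590), a hydroxyproline-rich glycoprotein of the extensin kind, had 133 and 121, against 297 (2.35-fold lower). Its probe set is of a type whose probes can also bind similar transcripts, so the gene behind the signal is uncertain. TBL40 (AT2G31110), of the trichome birefringence-like family that adds acetyl groups to wall polysaccharides, had 46.0 and 38.7, against 110. A further probe set of TBL40, below the water minimum, was also lower on both arrays, with 33.7 and 21.6 against 58.9. THE1 (AT5G54380, THESEUS1), a receptor kinase that monitors the integrity of the wall, had 66.0 and 65.2, against 146, 2.22-fold lower. Its relative FER, the receptor kinase FERONIA, had 303 and 313, against 319, a log2 change of -0.05.

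Of the annotated members 2 act in wax formation and 1 is of the defensin kind. DEWAX (AT5G61590), an AP2/ERF-type repressor of wax synthesis genes, had 133 and 126 with 2,4-D, against 302 with water, 2.34-fold lower. CER26 (AT4G13840, ECERIFERUM 26), which takes part in the elongation of very long wax precursors, had 78.2 and 73.4, against 164, 2.17-fold lower. A repressor and a contributor of wax formation were thus both below water, each with close values on the 2,4-D arrays. AT3G23840, the other tested gene of the cuticle list and no member, had 21.3 and 31.8, against 26.6. PDF2.5 (AT5G63660), a small cysteine-rich protein of the defensin kind, had 33.8 and 59.1, against 127, and its 2,4-D arrays differed by 1.75-fold.

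Besides THE1 and DEWAX, the annotated members with a role in signalling or gene regulation were CLE44 and PosF21, and CCL is set beside them. CLE44 (AT4G13195) encodes a precursor of the peptide that keeps vascular stem cells dividing, and had 37.4 and 43.7 with 2,4-D, against 103 with water, 2.54-fold lower. CLE41, which encodes the same peptide, had 165 and 136, against 199, a log2 change of -0.41, well short of the rule. PosF21 (AT2G31370), a basic leucine zipper transcription factor that the table lists under its locus, had 54.9 and 43.7, against 173, 3.54-fold lower. CCL (AT3G26740, CCR-like), which has a short-lived message under control of the circadian clock, had 163 and 296, against 740. Its 2,4-D arrays differed by 1.82-fold, in the opposite direction to those of EXO.

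Further members act in protein turnover and metabolism. UBP19 (AT2G24640), a ubiquitin-specific protease that removes ubiquitin from proteins, had 50.3 and 57.0 with 2,4-D, against 141 with water, 2.62-fold lower. VPS37-2 (AT2G36680), a subunit of the ESCRT-I complex that sorts ubiquitinated membrane proteins, had 55.4 and 46.0, against 133, 2.64-fold lower. Both are parts of ubiquitin-dependent protein turnover. SWEETIE (AT1G67140), needed for normal sugar and starch metabolism, had 68.3 and 70.8, against 164. QQS (AT3G30720), a gene that influences starch content, had 85.8 and 94.4, against 201. HIRD11 (AT1G54410), a small dehydrin that binds metals, had 629 and 670, against 1515, 2.33-fold lower. The dehydrin gene LTI30, by contrast, had 297 and 352, against 100.3. Only these 2 dehydrin genes were matched by symbol, and HIRD11 was low by the rule, so they do not stand for dehydrins in general. With each array scaled to 1 common median, 12 of these 16 genes with a symbol or synonym met the numbers of the rule. CLE44, CER26, PDF2.5 and QQS did not. With an offset of 16 added to every signal 11 met them, and THE1 was missing as well.

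**Figure D2:**
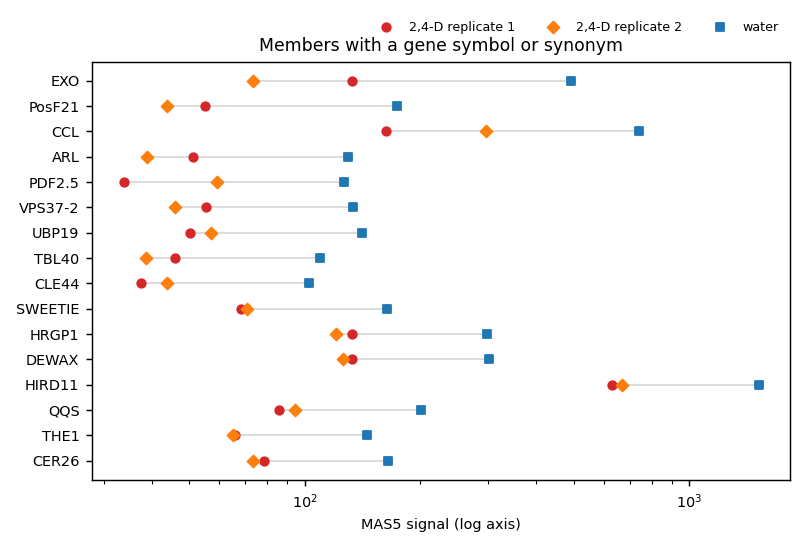
MAS5 signals (x axis, log scale) of the 16 member genes that have a symbol or synonym beyond the locus, one gene per row, on 2,4-D replicate 1, 2,4-D replicate 2 and water. All 2,4-D points lie left of the water point, as the rule requires, and the gap between the 2,4-D points is widest for EXO and CCL.

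The other 80 named genes were listed by locus alone, with no function in the tables used. The lowest change of all named members was that of AT5G57760, with 19.6 and 11.2 on the 2,4-D arrays, against 149 on the water array, 10.1-fold lower. Both values lay above the brightest of 27 dim bacterial controls (10.7 and 8.37 on those arrays), the second by the smaller margin. AT5G02540 had 35.5 and 31.4, against 166 (4.98-fold lower), AT3G19850 had 37.2 and 41.9, against 175 (4.44-fold), and AT2G25250 had 74.2 and 71.5, against 307 (4.21-fold). With EXO these were the 5 named members that were at least 4-fold lower. AT5G25840 followed with 59.9 and 37.1, against 184, and AT2G21530 with 234 and 197, against 747. AT1G15010 had 47.6 and 38.1, against 144. For all 3 of these the lower 2,4-D signal was that of replicate 2.

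The next group was about 3-fold lower. AT2G29310 had 120 and 173 with 2,4-D, against 454 with water, and AT1G70820 had 35.2 and 33.9, against 107. AT5G44680 had 167 and 143, against 477, and AT2G03310 had 41.9 and 27.8, against 105. AT1G71410 had 83.6 and 117, against 302, and AT5G53880 had 151 and 123, against 413. No order of the 2,4-D arrays was shared by these 6 genes: 2 read higher and 4 lower on replicate 2. AT3G62550 had 33.6 and 63.4, against 138, and with 1.89-fold it had the widest gap between 2,4-D arrays of any named member. AT2G45860 had 91.6 and 57.0, against 215, and AT3G06070 had 199 and 315, against 743. Values for AT5G06630 were 51.2 and 54.5, against 155, from a probe set whose probes may bind similar transcripts. AT5G59170 had 37.4 and 54.8, against 132, AT2G03350 had 143 and 130, against 396, and AT2G20670 had 136 and 162, against 424. Of these last genes AT5G59170 and AT2G20670 read higher on 2,4-D replicate 2, and AT2G03350 read higher on replicate 1.

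**Figure D3:**
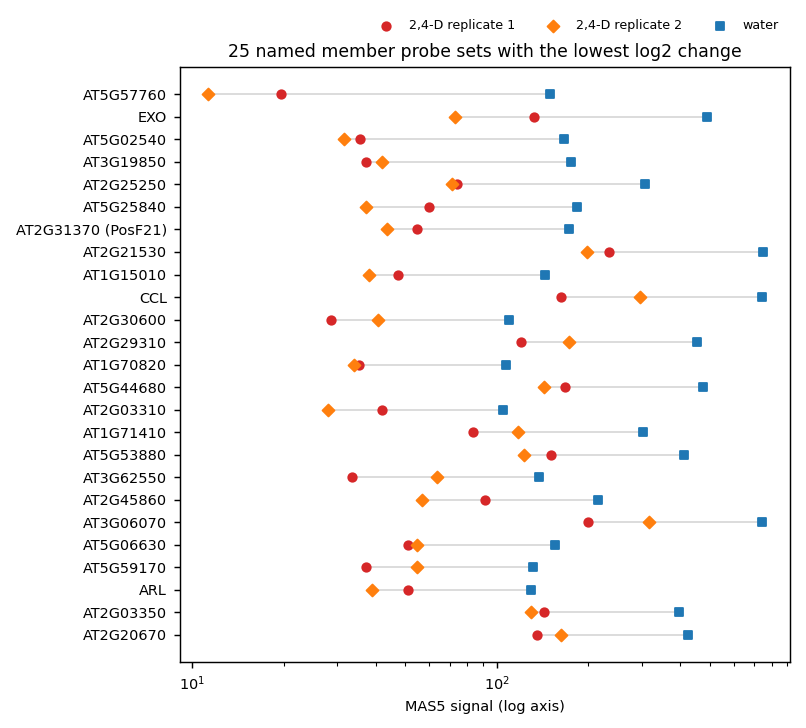
MAS5 signals (x axis, log scale) of the 25 named member probe sets with the lowest log2 change, from AT5G57760 at the top to AT2G20670 at the bottom, on 2,4-D replicate 1, 2,4-D replicate 2 and water. The order of the 2,4-D points differs from gene to gene, with EXO lower on replicate 2 and CCL lower on replicate 1.

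AT2G30600 was the single gene with 2 member probe sets. They had 28.6 and 40.9 with 2,4-D, against 110 with water, and 102 and 92.6, against 267, so both were lower, 3.21-fold and 2.75-fold. TBL40, given above, was likewise lower on both of its probe sets, while the probe sets of other member genes differed in size, brightness or direction. For AT5G55040 the member probe set had 67.5 and 69.6, against 156, and the other was dim on every array, with 3.42 and 0.33, against 3.68. AT3G48570 had 54.6 and 59.9, against 120, on its member probe set, and 160 and 144, against 213, on the other. The latter was also lower, by 1.40-fold. AT1G21830 had 77.9 and 91.5, against 200.3, on its member probe set, and 122 and 114, against 90.2, on the other, which was thus higher with 2,4-D. For AT1G21830 the direction depended on the probe set, and no single direction can be given for the gene.

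Several members had high water signals, though signals of different probe sets do not rank transcript levels. AT4G22490 had 742 and 629 with 2,4-D, against 1560 with water (2.28-fold lower). AT4G12980 had 249 and 236, against 652 (2.69-fold lower), and AT2G41090 had 268 and 287, against 617 (2.22-fold lower). Their 2,4-D arrays lay close together. The highest water signal of any member belonged to a probe set that carries several genes, with 1081 and 1043, against 2170.5.

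Of the named probe sets, 48 more were locus-only genes between 2.02-fold and 2.82-fold lower, with a median of 2.34-fold. Their signals ran from 40.4 to 200.3 on 2,4-D replicate 1 and from 40.5 to 191 on replicate 2, against 105 to 448 with water. AT1G12810 had nearly equal 2,4-D values, 93.0 on each array, against 212. AT1G64050 (41.3 and 40.5, against 108) and AT3G12710 (109 and 113, against 269) also had close 2,4-D values, though others of the group were closer. AT4G23820, with 200.3 and 191, against 448, had the highest 2,4-D and water signals of this group.

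The 117 unlisted members were described only by level and change. Their median signals were 83.2 and 75.7 with 2,4-D, against 208 with water, with a median log2 change of -1.38, compared with 69.8 and 69.6, against 177, and -1.34 for the named members. Of these 11 were at least 4-fold lower, among them a probe set with 109 and 148, against 818. In 3 unlisted members the signal on 2,4-D replicate 1 was at or below the brightest dim bacterial control, with 1.34, 5.69 and 7.47 on that array and 21.3, 48.7 and 41.9 on replicate 2. The first of these had the lowest change of all members, -4.39, which became -2.89 with the dim signal raised to the control's. None of the named members was that dim.

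The 2,4-D arrays differed little over the members. The median absolute log2 difference between them was 0.17 over the 221 members. Over the 199 members with a 2,4-D signal from 34.5 to 391 it was 0.17, against 0.20 over the 9989 other probe sets in that range, a description with no test. The rule asked both 2,4-D arrays to be low. It left out 201 probe sets that met its numbers on exactly 1 of them, so part of this agreement was set by the rule. Of the members, 127 were lower on replicate 2 than on replicate 1, and 5 differed by more than 2-fold between those arrays. Among the named members 62 of 97 had 2,4-D signals within 1.2-fold of each other, and 10 were over 1.5-fold apart. The agreement of the treated arrays says nothing of how far a second water array would have varied.

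**Figure D4:**
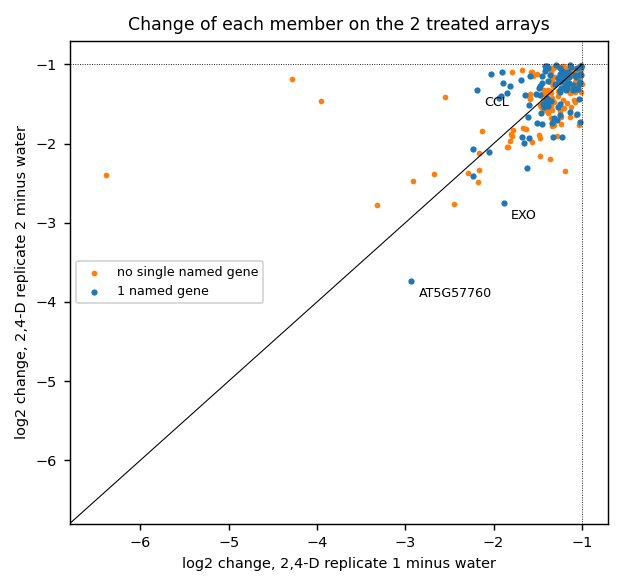
Log2 change of each of the 221 members on 2,4-D replicate 1 (x axis) and on 2,4-D replicate 2 (y axis), both against the single water array, with the line of equal change and dotted lines at the limit of the rule. Most points crowd near the limit, EXO lies below the line, CCL above it, and 3 unlisted members stand far to the left because they were dim on replicate 1.

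Genes close to the limits of the rule differed little across them. Just inside the water limit were AT4G01730 (42.6 and 40.9 with 2,4-D, against 100.1 with water), AT2G01990 (39.4 and 37.6, against 103) and CLE44. Just outside it were AT5G57000 (43.2 and 39.0, against 99.4), AT5G50840 (47.8 and 45.0, against 99.4) and AT1G78260 (33.6 and 27.8, against 99.1). At the fold limit AT3G48570, AT3G61210 (54.9 and 67.2, against 135) and AT5G58390 (76.8 and 76.4, against 154) were inside, with a higher 2,4-D signal of 49.7% to 49.9% of water. AT5G48460 (64.6 and 57.0, against 128), AT4G01395 (132 and 112, against 261) and AT3G16850 (167 and 158, against 331) were outside, with 50.4% to 50.5%. By the removal of families, 5 genes that met the numbers were set aside, XTH16, EXPA8, BZIP61, IQD32 and WRKY47, together with the plastid gene psaJ.

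Relatives of the members, chosen by symbol after the values were seen and therefore untested, are given as values beside them. Any relative that met the numbers would itself have been a member if its water signal reached 100, and of all tested probe sets 3.14% were at least 2-fold lower on both arrays, which in families this small comes to less than 1 gene. Among 11 other UBP genes bright enough to be considered, the log2 changes ran from -0.93 to 0.66, with UBP18 lowest (79.5 and 65.2 with 2,4-D, against 138 with water). Among 14 other TBL genes the changes ran from -0.95 to 0.71, with a median of -0.01. Among 12 other genes with a VPS or SNF7 symbol they ran from -0.87 to 0.85, and VPS2.2 was lowest, with 104 and 102, against 189. Most of these are ESCRT genes, but VPS9B, with a change of -0.60, was matched by its symbol alone and encodes an activator of Rab GTPases. LCR69 and LCR68, defensin-like relatives of PDF2.5, had changes of -0.35 and 0.22.

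**Figure D5:**
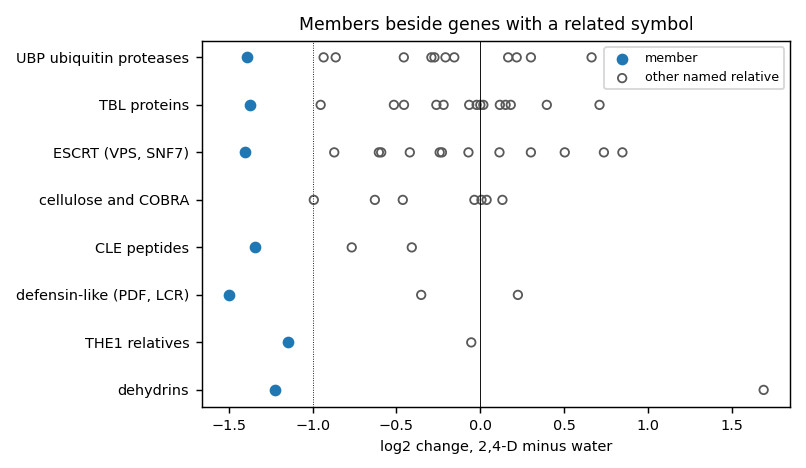
Log2 change, 2,4-D minus water (x axis), of members (filled) and of other named genes with a related symbol (open) in 8 families, for probe sets with a mean signal of 24.8 or more. The cellulose and COBRA row holds no member. The dotted line marks a 2-fold difference, and the single dehydrin relative, LTI30, lies at 1.69.

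A further look was taken at genes of 25 families and pathways for growth, wall, hormone, light, transport and transcription. They were listed by family and not by how they moved, though with earlier results of these data known. The limma fit over 13648 probe sets gave the background: 10.5% of them fell and 10.8% rose past an adjusted p of 0.05. With each array scaled to 1 common median 995 were lower and 2027 higher, against 1434 and 1472 as deposited. The p-values cover only the spread of the 2,4-D pair, which may be technical, and the water array has no replicate. For the list genes, fell and rose therefore give the direction of such a call and establish no effect of 2,4-D. Matching by symbol placed 3 members in the lists, EXO, CER26 and SWEETIE, and left out HRGP1 and DEWAX, which by kind belong with the extensins and the AP2/ERF factors. In the extensin list the sole entries were PRP39 and PRP39-2, which are pre-mRNA processing factors and no wall proteins. Of the lists' 62 tested genes that were not members, 8 fell and 8 rose, not far from that background. For 6 lists, among them the SAUR, aquaporin, arabinogalactan and auxin transport lists, no gene had a single-gene probe set. COB, the COBRA protein that orients cellulose deposition, had 433 and 408 against 837. Its log2 change of -0.99 (n = 2 against 1) was the largest fall among 7 tested cellulose and hemicellulose genes. Among 4 stomatal and trichome genes STOMAGEN, a peptide gene that promotes stomata, fell, with 184 and 194 against 362 (log2 change -0.94). In the brassinosteroid signalling list BIM1, a partner of the transcription factor BES1, was the single tested gene. It rose, with 222 and 225 against 112 (log2 change 1.00). The nitrate, ammonium and sulfate uptake list was filled by symbol and does not stand for all 3 kinds of uptake. Among its 6 tested genes the largest changes were rises. These were AT3G21670 (695 and 775 against 234), AT1G59740 (168 and 181 against 81.8) and GTR1, a glucosinolate transporter (142 and 145 against 80.7). GTR2, of the same name as GTR1, was also among the tested genes.

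In the sugar list SWEET17 and SWEET1 fell (log2 changes -0.63 and -0.58) and SWEET2 rose (0.58). These encode sugar transporters, while the member SWEETIE was matched to the list by its name and is no SWEET transporter. Of 4 tested peroxidase genes PRXR1 fell (1657 and 2012 against 3038) and AT5G66390 rose (50.8 and 53.7 against 19.4). Of the 10 tested in the cytochrome P450 list, CYP71 fell (89.9 and 71.5 against 131), and it encodes a cyclophilin rather than a P450. LUL4, which fell in the cytokinin list (35.4 and 25.6 against 69.2), is a ubiquitin ligase matched by a synonym. LUL1 and LUL2, of the same name, were in that list too, and ARR15 was the last of its 4 tested genes. CML42, a calmodulin-like gene, fell (98.9 and 57.2 against 124), and HYH and bHLH115, both transcription factor genes, rose (log2 changes 0.65 and 0.58). Scaling the arrays to 1 common median ended 4 of the 8 falls, those of CML42, CYP71, PRXR1 and SWEET1, and gave 10 rises in place of 8. Without the signal filter 2 of the falls, those of COB and STOMAGEN, were still called. Among the markers the 4 leaf genes had log2 changes from -0.49 to -0.17, and the root gene PYK10 had 0.27. EXPA7 and EXPA18 lay below the signal filter and went untested. So few genes cannot show whether the tissue mix was the same.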

How the data were processed

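The authors deposited intensity values, MAS5 signals on a linear scale, 1 per probe set and array, per the submitters' processing notes. MAS5 joins perfect-match and mismatch probes into 1 signal and scales each array, and the mean of the middle 96% of probe sets was 100.0 on all 3 arrays. The sources used here give no version, scaling target or genome build, and detection calls were not used. Of 22810 probe sets 64 were controls. The others were named through the probe-to-gene table and RefSeq names of assembly TAIR10.1: 13513 had 1 gene, 503 several and 8730 were unlisted, and a RefSeq locus was found for 13436. Prefixes were matched without regard to case.

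The deposited scaling was kept, and log2 values were computed. The members' values are described without a test. Other genes were tested by limma 3.58.1 (R 4.3.3, lmFit, then eBayes with trend) when their mean signal reached the 40th percentile (24.8, leaving 13648 probe sets), with Benjamini-Hochberg adjustment over these and a threshold of 0.05. A gene with several probe sets stood in a list by its brightest. Only the 2,4-D pair gave a residual degree of freedom (1, with infinite prior degrees of freedom), and the water array is taken to vary in the same way, so p-values cover the spread of that pair alone. An exact permutation over the arrays cannot go below p = 0.333 for 1 gene. The number of arrays limits the precision.

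Named were the 25 named members with the lowest change, members in a gene list, the 10 with the highest water signal, the 3 on each side of each limit, genes with a symbol and called list genes. The members, the lists, this rule and the families of relatives were chosen with earlier results of these data known. Promoter and protein sequences were not analysed here. Alternatives covered scaling, an offset, the limits of the rule, the filter, the trend and each 2,4-D array left out.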

Additional observations from a re-analysis of the deposited data

How the results depend on the processing

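The number of members was 221. It became 140 with each array scaled to 1 common median, 377 and 108 with a water minimum of 50 and 200, and 82 and 705 with a 2.5-fold and a 1.5-fold limit. Quantile normalization gave 228, and an offset of 16 gave 160, of which 147 were among the 221. The rule applied to 1 treated array, with the other 2,4-D replicate left out, gave 315 to 327. The median log2 change of -1.35 became -1.34 with quantile normalization, -1.28 with the offset, -1.36 and -1.33 with the other water minimums, -1.60 and -0.93 with the other fold limits, and -1.24 to -1.23 without a replicate. Over all probe sets limma called 1434 lower and 1472 higher, with 995 and 2027 (67.1% higher) at 1 common median, 710 and 964 without a filter and 839 and 834 without the trend. Of the list genes, 8 lower and 8 higher became 4 and 10 at 1 common median, 2 and 5 without a filter, and 3 and 4 without the trend. The tested probe sets at least 2-fold lower were 429 on both arrays and 706 to 768 on 1 array without the other. Beyond the alternatives' own limits the cause was not tested. No paired analysis was possible, because there was a single water array. It shares replicate number 1 with a 2,4-D array, but the labels do not say that this marks a pair. With 1 water array, the error of the water signal is unknown for every gene, and named members with 2,4-D signals under 50 lie nearest to the level of the dim controls.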

Other observations

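Genes next to named members on the chromosome were also looked at. In the RefSeq gene order 81 neighbours of named members had a single-gene probe set, and 25 of them had a water signal of 100 or more. Their median log2 change was -0.10, and 1 of the 25 met the numbers of the rule. Over all 6468 probe sets with such a water signal the median was -0.07 and 3.51% met the numbers, so the neighbours were near the background. This was WRKY47 (59.8 and 59.1 with 2,4-D, against 120 with water), which lies beside AT4G01730 (42.6 and 40.9, against 100.1). No named member lay next to another named member.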
